A study of Mus musculus with 5 samples.

Results

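The proteasome is the multi-subunit protease that degrades proteins tagged with ubiquitin, and its constitutive subunit genes were followed in whole blood of mice of 2 crosses. Members were the genes whose symbol is Psma, Psmb, Psmc or Psmd and a number, leaving out the interferon-inducible Psmb8, Psmb9 and Psmb10. The array held 36 such genes with 74 probe sets, out of 18193 genes with a probe set of 1 symbol and 45101 probe sets in all. Each gene was represented by its probe set with the highest mean over the 5 arrays. The core (Psma and Psmb) had 16 genes with 30 probe sets, and the cap (Psmc and Psmd) 20 genes with 44 probe sets.

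The core particle is a barrel of stacked rings. Its outer rings of alpha subunits gate the entry to the chamber, and its inner rings of beta subunits carry the catalytic sites. The cap binds ubiquitinated proteins, removes the ubiquitin, unfolds the substrate with a ring of ATPases and feeds it into the core. In blood, reticulocytes use the pathway while they clear cellular proteins, and leukocytes use it for signalling and for making peptides for antigen presentation.

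Blood was taken by cardiac puncture from adult female first-generation mice, and its RNA was hybridised to Affymetrix arrays, 1 array per sample. Mice of the (AKR/J x FVB/NJ)F1 cross gave 2 samples, called AKRxFVB F1, and mice of the (DBA/2J x FVB/NJ)F1 cross gave 3, called DBAxFVB F1, so that every animal had 1 FVB/NJ parent. The question was which genes have a different basal level in the 2 genotypes. No label says that the samples were separate animals, so p-values measure only the spread between these samples, and that spread may be technical. Whole blood is a mixture, and in it fewer cells of a type and less RNA per cell cannot be told apart.

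Values are log2 signals of probe sets, and differences are DBAxFVB F1 minus AKRxFVB F1 on that scale with limma's standard error. Of the 36 genes, 34 were tested, since their mean signal reached 2.51, the median over the array's non-control probe sets. Psma8 and Psmd10 lay below that level. Psma1, with a DBAxFVB F1 mean of 2.47, and Psmc1, with an AKRxFVB F1 mean of 2.495, passed only through the cross in which they were higher. In limma's fit over 22519 probe sets, 0 of the 34 genes passed a Benjamini-Hochberg adjusted p of 0.05, as did 0% of the 12421 genes tested (the smallest adjusted p was 0.235 for a member and 0.131 for any probe set). With 5 arrays the precision of each value is limited.

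As a list, the subunit genes read lower in DBAxFVB F1 blood. The mean was lower in 27 of 36 genes, against 41.3% of all genes, and the median difference was -0.27 against 0.049 over all genes. Every DBAxFVB F1 array lay below every AKRxFVB F1 array in 12 of the 36 (10.6% of all genes) and above in 3 (16.6%). Taking an unadjusted limma p below 0.05, there were 8 lower members (6.4% of the genes tested) and 2 higher ones (3.61%). The 8 were Psma1, Psma2, Psma4, Psma5, Psmb1, Psmb6, Psmd6 and Psmd14, and the 2 were Psma3 and Psmb11. Over the 32 members whose mean was at or above the filter in both crosses, a choice made after seeing the data that leaves out Psma1, 7 were lower at that p (6.29% of the 11459 such genes), 2 were higher (2.85%) and 11 were lower without overlap (11.8%). Leaving out AKRxFVB F1 array 1 or DBAxFVB F1 array 2 left 5 lower members at that p (3.99% and 4.63% of the genes tested), while 10 were reached when AKRxFVB F1 array 2 or DBAxFVB F1 array 3 was dropped (5.84% and 7.27%). There was 1 higher member when any array other than DBAxFVB F1 array 3 was dropped (1.35% to 4.1% of the genes tested). Without moderation of the variances 4 lower members (4.35%) and 2 higher ones (3.83%) had such a p. With single arrays left out, the difference moved by over 1.5 times or turned its sign in 25 of the 36 genes. It did neither in Psma1, Psma2, Psma3, Psma4, Psma5, Psma6, Psmb2, Psmb3, Psmb11, Psmd6 and Psmd11. Psma5 came close to that cut, at -1.12 on all arrays and -0.75 without AKRxFVB F1 array 1. The same count was not made over all genes, so it shows nothing particular to the members. Only Psma5 was lower by a fold of 2 or more, as were 1.54% of all genes.

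**Figure D1:**
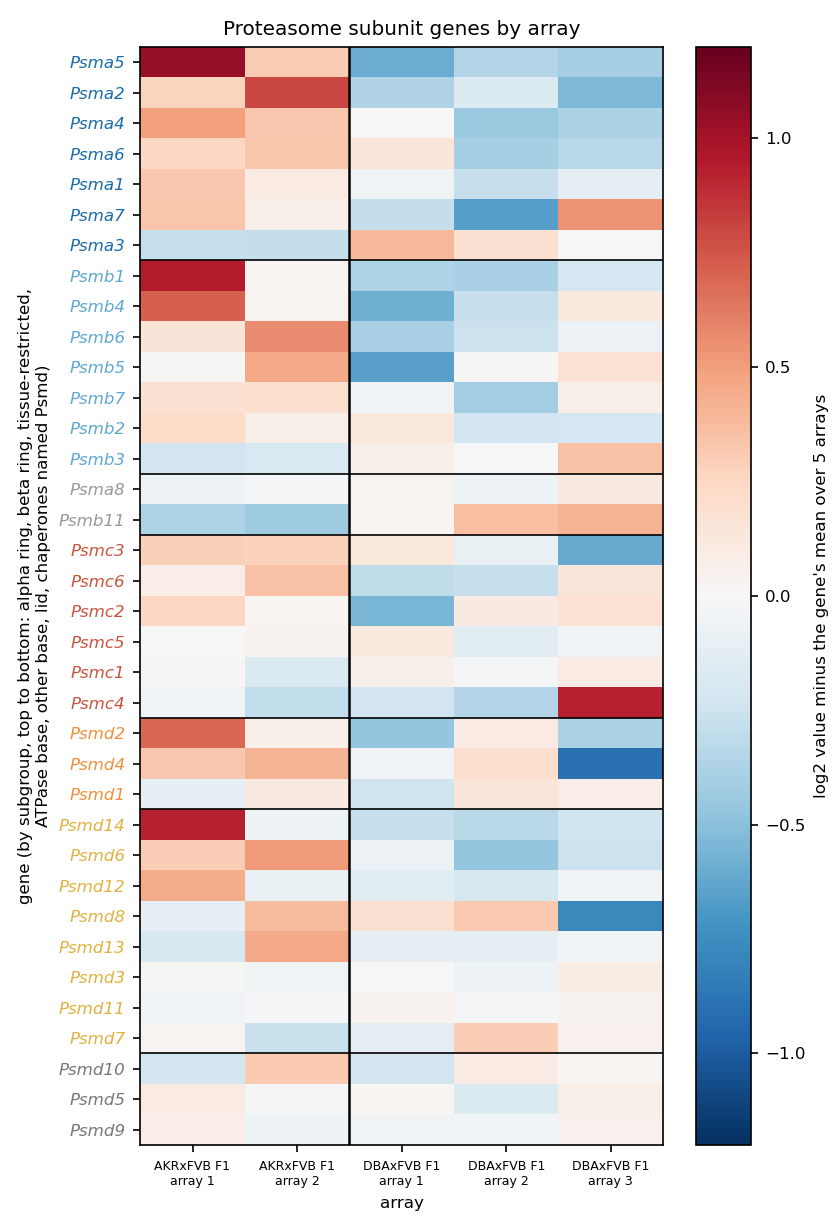
Heat map of the 36 genes (rows, grouped by position in the proteasome) on the 5 arrays (columns), coloured by the log2 value minus the gene's mean over the 5 arrays. Most alpha and beta ring genes are above their mean on both AKRxFVB F1 arrays, Psma3, Psmb3 and Psmb11 are below it there, and Psmc4, Psmd4 and Psmd8 stand apart on DBAxFVB F1 array 3.

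The promoters of the members are shown because the transcription factor Nfe2l1, which raises proteasome genes when the proteasome is inhibited, binds an antioxidant response element. The letters TGACNNNGC of that element were searched on both strands in the 250 bases before the start of each gene in RefSeq's table of assembly GRCm38.p6, where 29 of the 36 members had an entry. They were found in 5 of the 29 (17.2%) and in 11.5% of the 27025 genes of the table. The 5 were Psmb5, Psmb6, Psmc6, Psmd9 and Psmd12. The CCAAT box, searched as CCAAT on both strands, was found in 12 of the 29 (41.4%) and in 37.5% of all genes, with 7 of 12 core and 5 of 17 cap members. A match is only a match of letters.

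The upstream stretches that follow are first those of the alpha genes with the smallest p, Psma2 at chr13:14612992-14613241 (plus strand) and Psma5 at chr3:108256676-108256925 (plus strand). Then come those of the catalytic genes with a match, Psmb5 at chr14:54617996-54618245 (minus strand) and Psmb6 at chr11:70525107-70525356 (plus strand). Each is 5′ to 3′ on the strand of the gene, and capitals mark the match to TGACNNNGC, which begins 47 bases before the start in Psmb5 and 9 bases before it in Psmb6.
Psma2: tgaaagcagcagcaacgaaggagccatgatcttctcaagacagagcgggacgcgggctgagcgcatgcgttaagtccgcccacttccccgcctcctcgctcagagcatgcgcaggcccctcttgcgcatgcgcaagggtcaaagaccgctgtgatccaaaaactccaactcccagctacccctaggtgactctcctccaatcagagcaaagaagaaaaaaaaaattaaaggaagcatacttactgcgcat
Psma5: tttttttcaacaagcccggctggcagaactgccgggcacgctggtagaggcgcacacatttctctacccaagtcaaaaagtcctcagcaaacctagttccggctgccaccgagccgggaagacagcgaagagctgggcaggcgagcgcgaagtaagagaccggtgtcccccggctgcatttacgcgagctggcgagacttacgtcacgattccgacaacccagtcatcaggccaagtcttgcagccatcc
Psmb5: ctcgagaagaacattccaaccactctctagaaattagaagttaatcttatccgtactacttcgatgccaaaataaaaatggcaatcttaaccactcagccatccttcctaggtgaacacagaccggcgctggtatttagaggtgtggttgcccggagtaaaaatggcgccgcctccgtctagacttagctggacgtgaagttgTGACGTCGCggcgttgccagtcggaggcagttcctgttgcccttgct
Psmb6: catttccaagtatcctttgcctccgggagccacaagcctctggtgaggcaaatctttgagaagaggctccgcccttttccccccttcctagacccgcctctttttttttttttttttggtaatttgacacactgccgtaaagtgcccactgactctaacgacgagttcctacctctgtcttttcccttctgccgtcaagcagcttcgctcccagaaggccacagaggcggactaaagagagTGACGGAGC
The mean was lower in DBAxFVB F1 in all 5 genes with a match, beside 27 of all 36 members, of which only 29 were searched. The differences of the 5 ran from -0.60 for Psmb6 to -0.018 for Psmd9, which was 0.054 without AKRxFVB F1 array 1. Psma5 and Psma2, with no match in this window, had the largest differences of all members. A link between the element and the differences was not tested.

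The alpha ring genes had a median difference of -0.49, with 6 of 7 lower. Psma5, an alpha subunit of the ring, read 5.65 and 4.91 (AKRxFVB F1) and 4.01, 4.25 and 4.21 (DBAxFVB F1). The DBAxFVB F1 arrays all lay below both AKRxFVB F1 arrays, and AKRxFVB F1 array 1 was the highest. The difference was -1.12 ± 0.27 (limma adjusted p = 0.235) and was -0.75 without AKRxFVB F1 array 1. Psma2, another subunit of that ring, read 3.94 and 4.47 (AKRxFVB F1) and 3.31, 3.51 and 3.14 (DBAxFVB F1), so that the groups did not overlap and AKRxFVB F1 array 2 was the highest. Its difference was -0.89 ± 0.22 (limma adjusted p = 0.243).

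Psma4 differed by -0.68 ± 0.22, Psma6 by -0.49 ± 0.25 and Psma1 by -0.36 ± 0.15, and in each of these alpha subunit genes the groups did not overlap. Psma7 overlapped, since DBAxFVB F1 array 3 read 4.55, above every other array, and its difference was -0.34 ± 0.34, or -0.68 without that array. Psma3 ran the other way, with 3.45 and 3.44 (AKRxFVB F1) and 4.11, 3.91 and 3.73 (DBAxFVB F1). All 3 DBAxFVB F1 arrays were above both AKRxFVB F1 arrays, and the difference was 0.47 ± 0.19 (limma adjusted p = 0.44). A second probe set of Psma3, 1448442_a_at, had the opposite direction, reading 4.01 and 3.77 (AKRxFVB F1) and 3.41, 2.99 and 3.12 (DBAxFVB F1), again without overlap, a difference of -0.72 ± 0.19. The 2 probe sets of this gene therefore give no common direction.

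In the beta ring, 6 of 7 genes were lower and the median difference was -0.39. The subunits Psmb5, Psmb6 and Psmb7 carry the active sites of the constitutive core, which cut after hydrophobic, acidic and basic residues respectively. Psmb6, with the letter match 9 bases before its start, read 2.96 and 3.38 (AKRxFVB F1) and 2.42, 2.55 and 2.73 (DBAxFVB F1), without overlap. Its difference was -0.60 ± 0.18 (limma adjusted p = 0.313), or -0.40 without AKRxFVB F1 array 2. Psmb7 read 3.60 and 3.61 (AKRxFVB F1) and 3.39, 2.998 and 3.49 (DBAxFVB F1). The AKRxFVB F1 arrays were both above the DBAxFVB F1 arrays, and the difference was -0.31 ± 0.20, or -0.17 without DBAxFVB F1 array 2. Psmb5 read 3.9996 and 4.44 (AKRxFVB F1) and 3.34, 3.9996 and 4.16 (DBAxFVB F1), and here the groups overlapped because only DBAxFVB F1 array 1 was low. The difference of Psmb5 was -0.39 ± 0.29, and -0.14 without that array.

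Psmb1, a structural beta subunit, read 5.78 and 4.87 (AKRxFVB F1) and 4.47, 4.45 and 4.63 (DBAxFVB F1), which separated the groups and left AKRxFVB F1 array 1 far above the rest. Its difference was -0.81 ± 0.30 (limma adjusted p = 0.425), and -0.35 without that array. The other tested probe set of Psmb1, 1420053_at, differed by -0.017 ± 0.19. Psmb4 differed by -0.63 ± 0.32, or -0.28 without AKRxFVB F1 array 1, and Psmb2 by -0.25 ± 0.24, both with overlapping groups. Psmb3 was the beta ring gene with a higher DBAxFVB F1 mean, at 3.66 and 3.70 (AKRxFVB F1) and 3.95, 3.88 and 4.23 (DBAxFVB F1), a difference of 0.34 ± 0.19. Its other probe set, 1417052_at, was lower without overlap, at -0.30 ± 0.17.

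The rule also takes in 2 core genes known from other tissues. Psmb11, a catalytic subunit of the thymus, read 2.56 and 2.51 (AKRxFVB F1) and 2.96, 3.29 and 3.35 (DBAxFVB F1). The DBAxFVB F1 arrays were all higher, and the difference of 0.66 ± 0.17 (limma adjusted p = 0.244) was the largest upward one among the members, with an AKRxFVB F1 mean of 2.54 that lay close to the median of all probe sets. Psma8, an alpha subunit of the testis, read between 2.34 and 2.51 on the 5 arrays, below the filter.

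**Figure D2:**
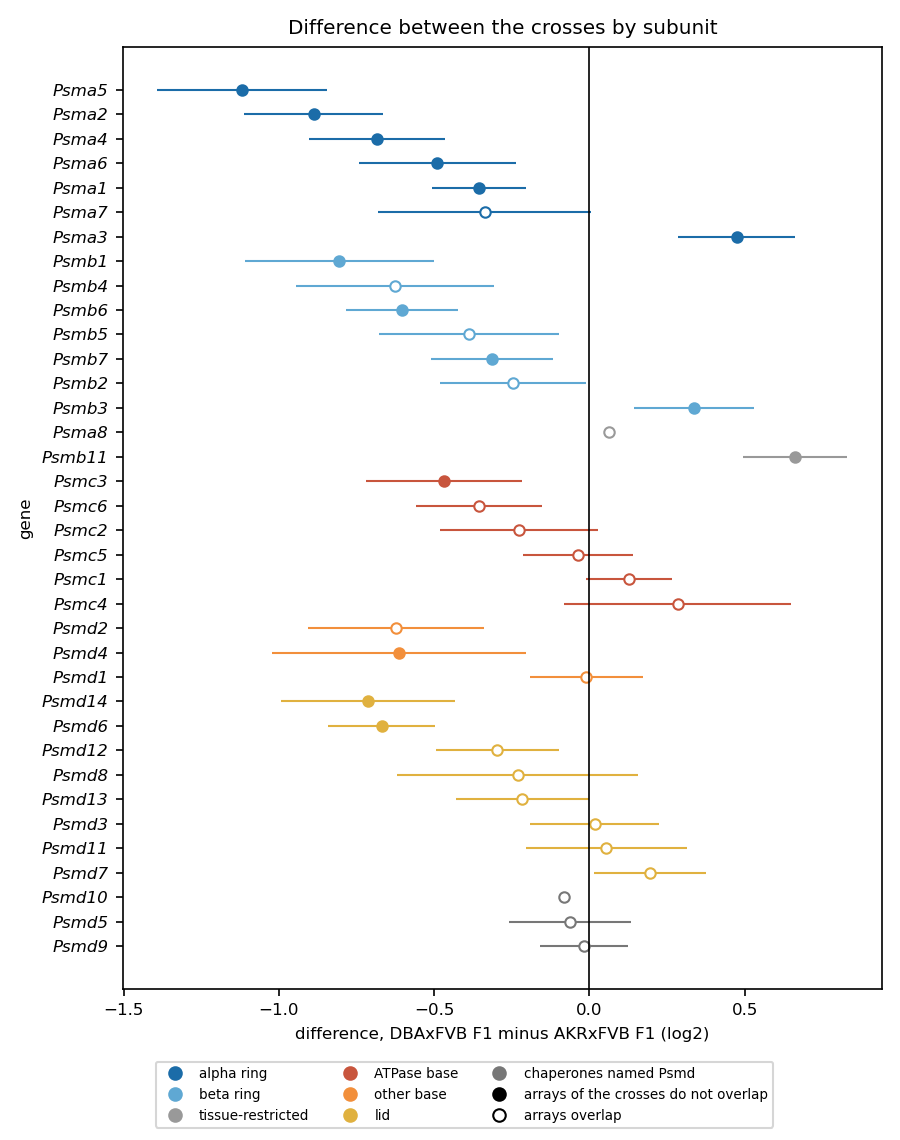
Difference between the crosses (x axis, log2, with limma's standard error as bars; the 2 genes below the filter have none) for each of the 36 genes (y axis), coloured by subgroup. Filled points are genes whose arrays do not overlap between the crosses, 12 of them to the left of 0 and 3 to the right. The 5 open points of the beta ring, tissue-restricted and alpha ring groups are Psma7, Psmb2, Psmb4, Psmb5 and Psma8.

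Differences were smaller in the cap, whose median was -0.15 against -0.37 for the core. In the core 12 of 16 genes were lower, 8 of them without overlap, and 3 were higher without overlap. In the cap 15 of 20 were lower, 4 of them without overlap, and 0 were higher without overlap. Over all genes the shares without overlap were 10.6% lower and 16.6% higher. The core median minus the cap median was -0.22, and this comparison of lists has no test here. Leaving out AKRxFVB F1 array 2 gave -0.37 and leaving out DBAxFVB F1 array 3 gave -0.37, and for the cap alone the median was -0.055 with the first of these left out and -0.096 with DBAxFVB F1 array 1 left out. With the assembly chaperones and the genes of thymus and testis left out, the medians were -0.44 for 14 core genes and -0.23 for 17 cap genes.

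The ATPase ring of the base, which unfolds substrates, had a median of -0.13, with 4 of 6 lower. Psmc3 read 4.32 and 4.31 (AKRxFVB F1) and 4.16, 3.95 and 3.43 (DBAxFVB F1). The groups did not overlap, and DBAxFVB F1 array 3 was the lowest. The difference was -0.47 ± 0.25 (limma adjusted p = 0.562), or -0.26 without that array. Psmc6 read 3.47 and 3.74 (AKRxFVB F1) and 3.09, 3.12 and 3.54 (DBAxFVB F1) and overlapped, with a difference of -0.35 ± 0.20, or -0.22 without AKRxFVB F1 array 2. The remaining ATPase genes differed by -0.23 ± 0.25 for Psmc2, -0.037 ± 0.18 for Psmc5, 0.13 ± 0.14 for Psmc1 and 0.28 ± 0.37 for Psmc4, all with overlap. Psmc4, singled out after its values were seen, read 3.29 and 3.04 (AKRxFVB F1) and 3.11, 2.98 and 4.26 (DBAxFVB F1). The last of these arrays alone made its mean higher in DBAxFVB F1, and the difference was -0.12 without it.

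Of the other base subunits, Psmd2 is a scaffold that docks ubiquitin-binding partners, and Psmd4 is itself a ubiquitin receptor. Psmd2 read 5.22 and 4.59 (AKRxFVB F1) and 4.07, 4.62 and 4.15 (DBAxFVB F1), with 1 DBAxFVB F1 array above 1 AKRxFVB F1 array and a difference of -0.62 ± 0.28 (limma adjusted p = 0.507), or -0.31 without AKRxFVB F1 array 1. Psmd4 read 8.05 and 8.13 (AKRxFVB F1) and 7.68, 7.92 and 6.83 (DBAxFVB F1). Its groups did not overlap, yet most of the difference of -0.61 ± 0.41 came with DBAxFVB F1 array 3, and it was -0.29 without that array. All 3 probe sets of Psmd4 had their lowest value on that array. Psmd1, the second scaffold subunit, differed by -0.011 ± 0.18.

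Lid genes had a median of -0.22, with 5 of 8 lower. The deubiquitinase of the lid is Psmd14, which removes the ubiquitin chain as the substrate enters. It read 4.50 and 3.51 (AKRxFVB F1) and 3.30, 3.24 and 3.34 (DBAxFVB F1), so that the groups were separate but 4 of the arrays lay within 3.24 to 3.51. Its difference was -0.71 ± 0.28 (limma adjusted p = 0.439), and -0.22 without AKRxFVB F1 array 1. Psmd6, a structural lid subunit, read 3.26 and 3.47 (AKRxFVB F1) and 2.89, 2.498 and 2.70 (DBAxFVB F1), without overlap and without a single array far from its group. Its difference of -0.67 ± 0.17 (limma adjusted p = 0.246) lay from -0.78 to -0.56 when single arrays were dropped.

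The rest of the lid differed little or overlapped. Psmd12 differed by -0.30 ± 0.20, Psmd8 by -0.23 ± 0.39, Psmd13 by -0.22 ± 0.22, Psmd3 by 0.017 ± 0.21, Psmd11 by 0.054 ± 0.26 and Psmd7 by 0.19 ± 0.18. Several of these sizes depended on which AKRxFVB F1 array was kept. Psmd12 was -0.029 without AKRxFVB F1 array 1 and -0.56 without array 2, Psmd13 was -0.54 and 0.11, and Psmd7 was 0.34 and 0.047. Psmd8 was lowest on DBAxFVB F1 array 3, at 4.97 against 5.64 to 6.12 on the others, and its difference was 0.11 without it. The signs of Psmd8 and Psmd3 turned under another normalization (quantile and median centring respectively). The chaperones that help to build the base, Psmd5, Psmd9 and Psmd10, are not part of the finished cap. Psmd5 read 4.30 and 4.19 (AKRxFVB F1) and 4.23, 4.04 and 4.28 (DBAxFVB F1), and Psmd9 read 3.02 and 2.87 (AKRxFVB F1) and 2.89, 2.90 and 2.98 (DBAxFVB F1). Both overlapped, with differences of -0.062 ± 0.20 and -0.018 ± 0.14, and Psmd10 had a difference of -0.082 below the filter, which was 0.18 without AKRxFVB F1 array 2.

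Most members had several probe sets, and these did not always run together. Of 19 genes with more than 1 probe set, 13 had more than 1 above the filter, and in 7 of the 13 every tested probe set was lower in DBAxFVB F1 (Psma5, Psma6, Psma7, Psmb1, Psmb4, Psmc2 and Psmd4). In the other 6 the signs were mixed (Psma3, Psmb3, Psmd7, Psmd9, Psmd11 and Psmd13), and in none were all higher. Some probe sets of the 7 differed little, with -0.017 ± 0.19 for 1420053_at of Psmb1 and -0.085 ± 0.30 for 1451725_a_at of Psmd4. With probe sets left out that were below the filter in 1 cross, as the second one of Psmb4 was in DBAxFVB F1, the counts were 6 all lower and 6 mixed of 12. Psmd11, a structural lid subunit, had 8 probe sets. The one with the highest mean, 1456059_at, stayed between 5.97 and 6.05 on all arrays, whereas 1437080_s_at read 5.70 and 5.99 (AKRxFVB F1) and 5.43, 5.37 and 4.98 (DBAxFVB F1), without overlap, a difference of -0.59 ± 0.27. Psma5 showed the same disparity in size, with a second probe set, 1424681_a_at, at -0.22 ± 0.24 and overlapping groups. Over all 74 probe sets 52 were lower in DBAxFVB F1, against 44.2% of all probe sets. The probe sets of Psma6, Psmc1 and Psmc2 used here carry the suffix of designs that can bind related sequences.

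**Figure D3:**
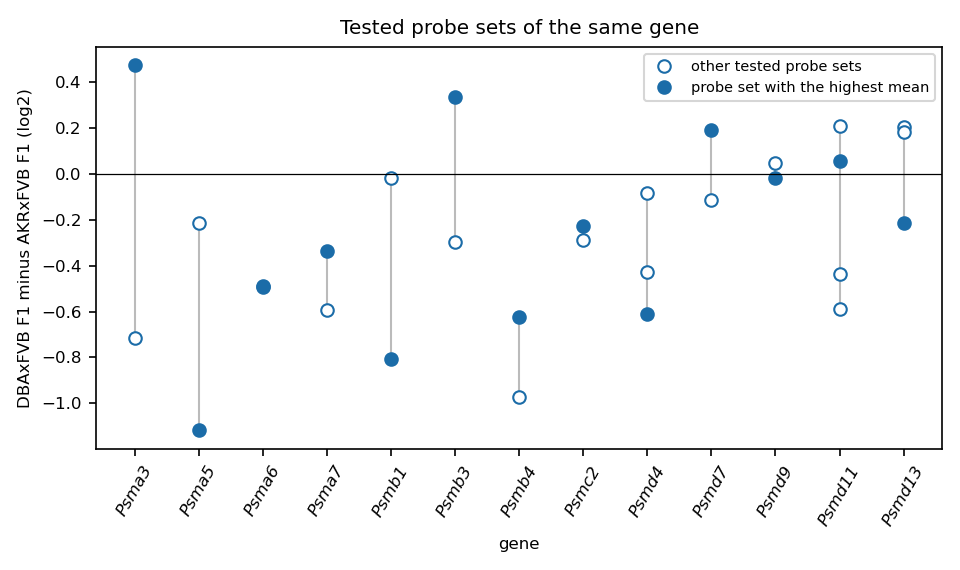
Difference between the crosses (y axis, log2) for each tested probe set of the 13 genes (x axis) with more than 1. Filled points are the probe set with the highest mean, which stands for the gene elsewhere, and open points are the others. The second probe set of Psmb4 has a DBAxFVB F1 mean below the filter. Psma3 runs from -0.72 to 0.47, and 7 genes lie wholly below 0.

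Deviations from each gene's mean over the arrays show which arrays carry the pattern. The core median was 0.24 and 0.087 (AKRxFVB F1) and -0.033, -0.27 and -0.035 (DBAxFVB F1), so the groups did not overlap. For the cap it was 0.055 and 0.031 (AKRxFVB F1) and -0.088, -0.048 and 0.031 (DBAxFVB F1), where DBAxFVB F1 array 3 lay level with AKRxFVB F1 array 2. The core median minus the cap median was 0.18 and 0.056 (AKRxFVB F1) and 0.055, -0.22 and -0.066 (DBAxFVB F1). In this contrast AKRxFVB F1 array 2 and DBAxFVB F1 array 1 were level. The alpha ring gave 0.33 and 0.30 (AKRxFVB F1) and -0.038, -0.35 and -0.34 (DBAxFVB F1), and the beta ring 0.18 and 0.073 (AKRxFVB F1) and -0.37, -0.26 and 0.073 (DBAxFVB F1), where the second AKRxFVB F1 array and the third DBAxFVB F1 array were alike. Array 1 of AKRxFVB F1 had the highest value for 13 of the 36 genes, array 2 for 11 and DBAxFVB F1 array 3 for 7. On DBAxFVB F1 array 2, 15 genes were lowest. AKRxFVB F1 array 1 was above every other array by over 0.5 for 5 genes (Psma5, Psmb1, Psmb4, Psmd2 and Psmd14). The same counts were not made over all genes, so they describe the members only.

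The arrays held the markers of blood, with a mean of 13.53 for the erythroid gene Alas2, 10.08 for the platelet gene Pf4 and 6.33 for the B cell gene Ms4a1, and they differed in measures other than the proteasome. The median of the 18 hybridisation controls was 7.99 on DBAxFVB F1 array 3 and 10.01 to 10.12 on the others, and the difference between 3-prime and 5-prime probe sets of Actb, a sign of RNA quality, was 1.22 and 1.03 (AKRxFVB F1) and 0.82, 0.68 and 1.32 (DBAxFVB F1). For Gapdh it was 1.04 and 0.73 (AKRxFVB F1) and 0.62, 0.58 and 1.33 (DBAxFVB F1), so that by both genes DBAxFVB F1 arrays 1 and 2 were the lowest and array 3 the highest. B cell markers (9 of 10 listed had a probe set) gave a median of 0.92 and -0.062 (AKRxFVB F1) and -0.49, -0.53 and 0.081 (DBAxFVB F1). Their summed linear signal was 264 to 574 in AKRxFVB F1 and 139 to 234 in DBAxFVB F1, with 8 of the 9 genes lower and 1 higher. The T cell sum (9 of 10) was 284 to 321 against 229 to 270. The T cell median overlapped, at 0.091 and 0.23 (AKRxFVB F1) and 0.18, -0.24 and -0.20 (DBAxFVB F1), with 7 of the 9 genes lower and 2 higher. For monocytes (9 of 10) the sum was 800 to 1195 against 447 to 908, with the median at 0.37 and -0.039 (AKRxFVB F1) and -0.58, -0.30 and 0.35 (DBAxFVB F1). Lyz2 and Ctss had the highest signals of this list, and 6 of its 9 genes were lower and 3 higher. Neutrophil markers (9 of 10) summed to 268 to 436 against 239 to 400, with 3 of the 9 genes lower and 6 higher. Platelet markers (9 of 10) summed to 3485 to 6631 against 1493 to 5251, with 8 lower and 1 higher. Their median signal was 7.30, and 74.4% of all genes with a signal of 6 to 8 were lower. Erythroid markers (11 of 13) summed to 12708 to 14229 against 12370 to 14176, and most of that sum was Alas2. The erythroid median was 0.0058 and 0.21 (AKRxFVB F1) and 0.0033, 0.28 and -0.12 (DBAxFVB F1). Of the 11 erythroid genes 5 were lower and 6 higher, with differences from -0.94 for Hba-a2 to 0.18. Hba-a2 read 5.72 and 5.87 (AKRxFVB F1) and 5.35, 5.84 and 3.39 (DBAxFVB F1), so that DBAxFVB F1 array 3 alone lay far below the rest. Markers of heart muscle and endothelium (8 of 8) summed to 55 to 60 against 62 to 77. Of all these markers Lcn2, Fcgr1, Myh6 and Nppa had a mean below the filter. The part of cell makeup, RNA quality or these arrays in the proteasome differences was not tested.

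**Figure D4:**
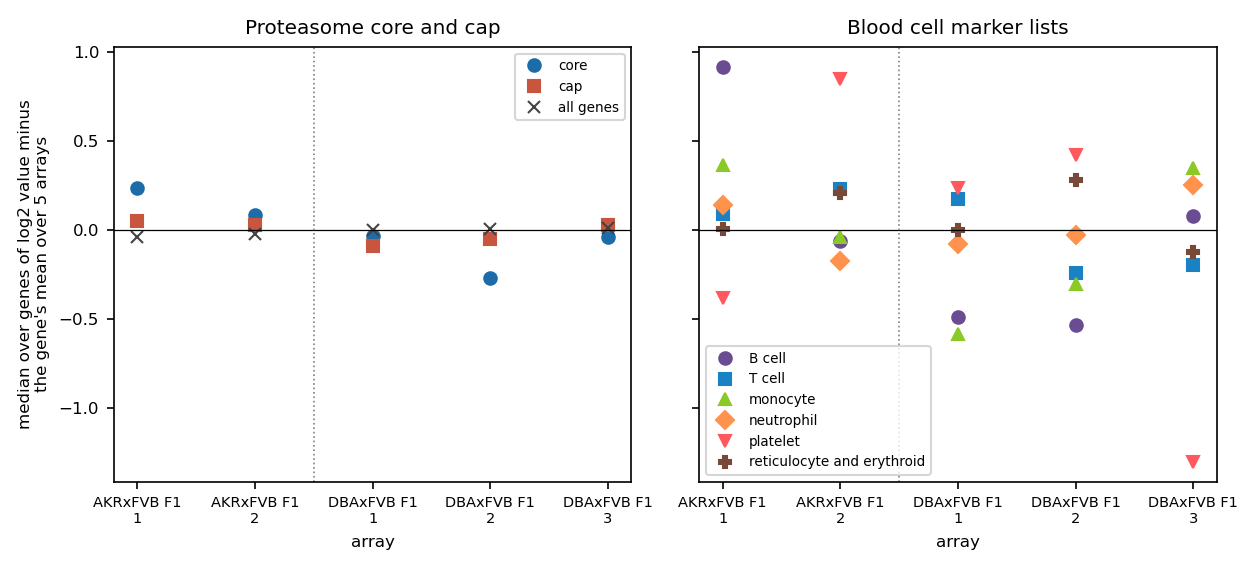
Median over genes of the log2 value minus each gene's mean over 5 arrays (y axis), by array (x axis), for the proteasome core, the cap and all genes (left) and for blood cell marker lists (right). The core is above 0 on both AKRxFVB F1 arrays and below 0 on all DBAxFVB F1 arrays, B cell markers are highest on AKRxFVB F1 array 1, and platelet markers are lowest on DBAxFVB F1 array 3.

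The size of a difference also went with the signal of the probe set over all genes, so members were set beside genes of like signal. Genes with a mean of 8 or more had a median difference of -0.48, and those of 6 to 8 one of -0.39, with the lowest deviations on DBAxFVB F1 array 3. No member had a mean of 8 or more, and 2 of 36 lay between 6 and 8, Psmd4 and Psmd11. For genes of 4 to 5 the median was 0.048 over 1932 genes, of which 43.9% were lower, and the 10 members in that range had a median of -0.48 with 9 lower. For genes of 3 to 4 it was 0.079 over 4651 genes, and the 13 members there had a median of -0.23 with 10 lower. Between 2.5 and 3 the 7 members had a median of -0.018, against 0.075 over 4433 genes.

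**Figure D5:**
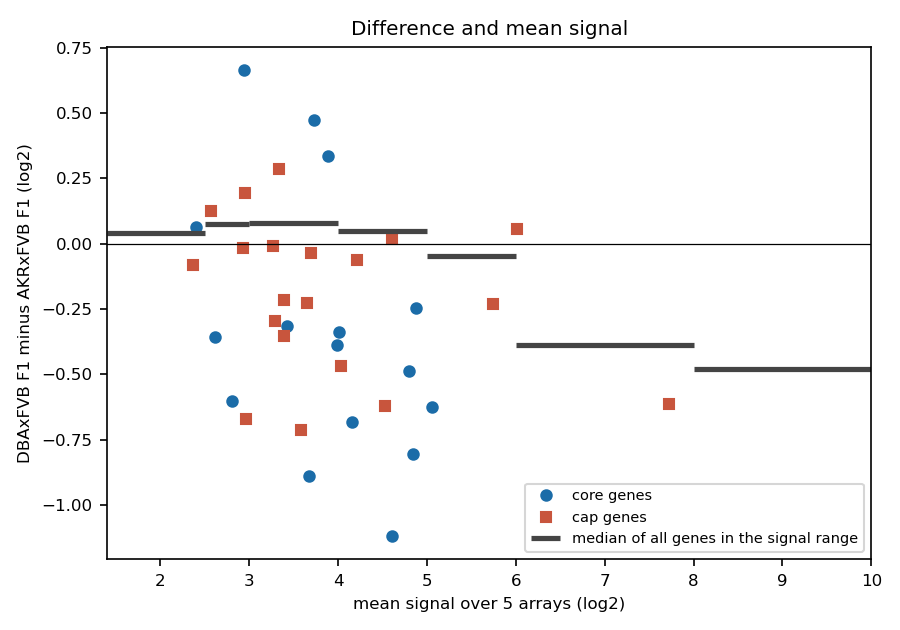
Difference between the crosses (y axis, log2) against the mean signal over 5 arrays (x axis, log2) for the 16 core genes and 20 cap genes, with bars for the median difference of all genes in each signal range. Members with a signal of 3 to 5 lie mostly below the bars of that range, and Psmd4, at 7.72, lies in a range whose bar is itself at -0.39.

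Related genes of the pathway were taken from fixed lists. In the immunoproteasome, whose subunits replace the catalytic ones after interferon, Psmb8 differed by -0.60 ± 0.19, Psmb9 by -0.38 ± 0.19 and Psmb10 by 0.086 ± 0.17. Psmb8 had an unadjusted limma p below 0.05, but its second probe set was higher in DBAxFVB F1. The list of activators and the inhibitor had 4 measured genes, the inhibitor among them. All 4 were lower, and 0 had an unadjusted limma p below 0.05. Their median signal was 6.78. Of all genes with a signal of 6 to 8, 74.4% were lower, and of those at 8 and over 90.5%. The activator genes Psme4 and Psme1 differed by -0.41 ± 0.38 and -0.19 ± 0.21 and the inhibitor Psmf1 by -0.40 ± 0.46, which was 0.024 without DBAxFVB F1 array 3 and positive after quantile normalization too. Psme4 was -0.19 without that array.

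Of 6 measured assembly factors 3 were tested. Pomp, the maturation protein that brings beta subunits together, read 4.25 and 4.85 (AKRxFVB F1) and 3.47, 3.21 and 3.81 (DBAxFVB F1). Both AKRxFVB F1 arrays lay above all DBAxFVB F1 arrays, and the difference was -1.05 ± 0.26 (limma adjusted p = 0.243). The core assembly chaperone Psmg1 differed by 0.013 ± 0.14 and the proteasome-binding scaffold Ecpas by -0.020 ± 0.20. The direction of Psmg1 turned after quantile, median or cyclic loess normalization.

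A list of ubiquitin receptors, deubiquitinases and other proteasome-associated genes had 5 of 6 genes measured (Sem1, Usp14, Uchl5, Ube3c and Txnl1). Of these 4 were lower, and 0 had an unadjusted limma p below 0.05. Their median signal was 5.48, and 56.3% of all genes with a signal of 5 to 6 were lower. The lid subunit gene Sem1 differed by -0.67 ± 0.31, the proteasome-associated thioredoxin Txnl1 by -0.55 ± 0.27 and the ubiquitin ligase Ube3c by 0.17 ± 0.29. Without AKRxFVB F1 array 2 Sem1 was -0.40 and Txnl1 -0.26. Among 14 ubiquitin and shuttle genes 7 could be named on the array, and 4 of the 7 were lower. Ubqln4, a shuttle, differed by 0.38 ± 0.14 with an unadjusted limma p below 0.05, Ubqln2 by -0.44 ± 0.22 and the unfoldase gene Vcp by -0.63 ± 0.33. Ubqln2 was -0.094 without AKRxFVB F1 array 2, and Vcp was -0.38 without DBAxFVB F1 array 1.

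Transcription factors of the pathway were all measured, and 4 of 6 were lower. Nfe2l2, which drives the response to oxidative stress, read 4.17 and 3.65 (AKRxFVB F1) and 3.24, 2.87 and 3.06 (DBAxFVB F1), without overlap. The difference was -0.85 ± 0.21 (limma adjusted p = 0.243). A second probe set of Nfe2l2 did not share this direction and was slightly higher in DBAxFVB F1. The Nfe2l2 repressor Keap1 differed by 0.097 ± 0.21 and the small partner Maff by 0.095 ± 0.18. Nfe2l1, named for its element in the promoters, differed by -0.025 ± 0.17. Of 27 related genes tested, Psmb8, Pomp and Nfe2l2 were lower at an unadjusted limma p below 0.05 (6.4% of all genes tested). Ubqln4 was higher (3.61%), and 0 passed the adjusted threshold. These counts use the probe set with the highest mean, and the second ones of Psmb8 and Nfe2l2 ran the other way.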

How the data were processed

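Log2 probe set values of 5 whole blood arrays, 2 of AKRxFVB F1 and 3 of DBAxFVB F1 mice, were used as the authors deposited them. The log2 scale was inferred from their range, 1.29 to 14.8. The submitters' processing notes name MAS5 and RMA; which of the 2 made these values, and with what background correction and scaling, is not given in the sources used here. Differences of dim probe sets are understated if low signals were compressed. Symbols came from the platform annotation; 34958 probe sets had 1 symbol, 932 several and 9211 none, and a check of 34754 of them by gene identifier against RefSeq's GRCm38.p6 genes changed 0.

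Samples were grouped by the cross in their labels. Non-control probe sets with a mean of 2.51 or more, the median, were tested with limma 3.58.1 in R 4.3.3 (cross as the only term, eBayes with a variance trend, two-sided, 3 residual degrees of freedom). An exact permutation test of 2 arrays against 3 cannot go below p = 0.1 and was not used. The labels give no batch or scan date. The fit was tested on simulated data. Python 3.11.15 with pandas 2.3.3 and matplotlib 3.10.9 made the summaries and plots.

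The members, the lists and the naming rule were chosen with earlier results of these data known. The rule took Psmb5, Psmb6 and Psmb7, the 2 smallest p in each subgroup and the 2 largest differences per direction for array values, and up to 3 smallest p per related list. Alternatives were other normalizations, filters, variance models, thresholds, probe set choices and members, weights per array, a replicate block and each array left out in turn. The alternatives planned for linear values were not needed.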

Additional observations from a re-analysis of the deposited data

How the results depend on the processing

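The counts of members and of probe sets past the adjusted threshold were 0 in every setting run. The number of arrays limits every value, and low signals have no stated limit of detection. With 1 array left out, the median over all members ranged from -0.27 to -0.23, that of the core from -0.49 to -0.30, that of the cap from -0.17 to -0.055 and the core minus the cap from -0.37 to -0.16. The cap median was -0.091 after quantile normalization, -0.091 with array weights and -0.076 with the mean of a gene's probe sets. Without chaperones and tissue-restricted members it was -0.23, and the median of the 31 core and cap genes left was -0.34. The core minus the cap was -0.37 with array weights and -0.37 with the replicate number as a block. The block leaves DBAxFVB F1 array 3 without weight, and with it 11 lower members had an unadjusted p below 0.05 (7.32% of all genes tested), against 8 without it (6.4%). The numbers were not taken as pairs, since no label says that they pair samples. Deviations of same-numbered arrays from their group means correlated at r = -0.26 for number 1 and 0.17 for number 2 over the tested probe sets. These values cannot decide on pairing, since the deviations of the 2 AKRxFVB F1 arrays are mirror images of each other. Leaving out probe sets ending in _x_at or _s_at, chosen after seeing the data, gave a member median of -0.29. Median centring moved the median of all genes from 0.049 to 0.0056.

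After quantile normalization the sign turned for Psmd8 (0.014), Psmf1 (0.069) and Psmg1 (-0.028). After median centring the sign turned for Psmd3 (-0.026) and Psmg1 (-0.030). After cyclic loess normalization the sign turned for Psmg1 (-0.053). With array weights the sign turned for Psmd3 (-0.0089). With the replicate block the sign turned for Psmc4 (-0.12), Psmd3 (-0.025), Psmd8 (0.11) and Psmf1 (0.024). With the mean of a gene's probe sets the sign turned for Psma3 (-0.12), Psmc4 (-0.0018), Psmd9 (0.13), Psmd11 (-0.069), Psmd13 (0.0016), Ecpas (0.041) and Ube3c (-0.024). With the probe set of median rank the sign turned for Psma1 (0.069), Psma3 (-0.72), Psmb3 (-0.30), Psmc4 (-0.29), Psmd7 (-0.12), Psmd9 (0.046), Psmd11 (-0.074), Psmd13 (0.18), Psmb8 (0.24), Psme4 (0.038), Ecpas (0.19), Ube3c (-0.34), Ubqln2 (0.15) and Nfe2l2 (0.025). With 1 array left out, signs turned within these ranges: Psmd9 from -0.090 to 0.054, Psmg1 from -0.054 to 0.079, Keap1 from -0.17 to 0.37, Psmd1 from -0.12 to 0.11, Psmd3 from -0.025 to 0.051, Psmd8 from -0.47 to 0.11, Psmd10 from -0.35 to 0.18, Psmd13 from -0.54 to 0.11, Ecpas from -0.29 to 0.25, Maff from -0.069 to 0.26, Psmc2 from -0.36 to 0.0036, Ube3c from -0.029 to 0.31, Psmc5 from -0.10 to 0.024, Psmd5 from -0.12 to 0.0091, Psmc4 from -0.12 to 0.52 and Psmf1 from -0.64 to 0.024. None of these genes passed the threshold, and the cause of the turns was not tested.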
